A study of Rattus norvegicus with 24 samples.

Results

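The genes described here encode the core of the basement membrane: the type IV collagen chains Col4a1 and Col4a2, the laminin chains Lama5, Lamb1, Lamb2 and Lamc1, the linker nidogen 1 (Nid1), and Sparc, a secreted collagen-binding protein. They were taken by gene symbol, as the probe sets whose only platform symbol was that of a member, and make up 8 of the 14217 genes and 14 of the 31042 probe sets of the array. Where a gene had several probe sets, the one with the highest mean over the 24 arrays gave its main value.

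A basement membrane is a thin matrix sheet under epithelia and around vessels. Laminin trimers, each of an alpha, a beta and a gamma chain, and triple helices of type IV collagen form separate networks that nidogen and the proteoglycan perlecan tie together, and integrins and dystroglycan on the cell surface hold laminin. In healthy liver the space between hepatocytes and sinusoidal endothelium holds no continuous basement membrane, and its build-up there is known from fibrosis.

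Primary rat hepatocytes, cells isolated from liver and plated directly, were cultured in 2 ways. In collagen sandwich cultures the cells lay between a lower gel of type I collagen and an upper gel added a day after seeding, whereas monolayer cultures had the lower gel only. Total RNA was taken on days 1, 2, 3 and 8 counted from the addition of the upper gel, from 3 samples per culture and day. The 8 groups were therefore sandwich cultures on days 1, 2, 3 and 8 and monolayer cultures on days 1, 2, 3 and 8.

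All groups shared the same medium, a DMEM with serum, antibiotics, hydrocortisone, glucagon, insulin and epidermal growth factor, renewed daily. No strain, sex or age of the rats was given, and nothing in the labels says whether replicates came from separate animals or separate wells. P-values below therefore measure only the spread between these samples, which may be technical.

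RNA was labelled from an oligo(dT) primer and hybridised to 1-colour Affymetrix arrays, and every level below is a log2 probe set value as deposited. Array medians lay between 5.57 and 5.67, and arrays of 1 group correlated at 0.993 to 0.997 over all probe sets. The 9 measured hepatocyte markers were above the median of all values, 5.62, in all 8 groups. The beta-actin 3′ minus 5′ difference, a measure of RNA integrity in which a larger value means fewer 5′ ends, was 0.81 to 1.21 in sandwich arrays and 0.75 to 0.89 in monolayer arrays. With no detection calls in the table, the level that is background is unknown, and no fold is given where the lower group averaged under 5.62.

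On day 8, 6 of the 8 genes were lower in sandwich than in monolayer cultures by their main probe sets, namely both collagen chains and all 4 laminin chains. By these probe sets none was higher, also at an unadjusted p under 0.05. At that unadjusted threshold 7 were lower, where 3553 of all 14217 genes were. At other probe sets, Lama5 (1396159_at) was higher in sandwich cultures by 0.39 (adjusted p = 0.00168) and Nid1 (1371518_at) by 0.63 (adjusted p = 0.00267). Of all genes, 36.3% were called on that day and 20.7% were lower in sandwich cultures (limma, Benjamini-Hochberg adjusted p under 0.05). The median difference of the 8 genes was -1.66 log2 units, against 0.00 over all genes. Nid1 and Sparc did not pass. In the same 6 genes all 3 sandwich arrays were below all 3 monolayer arrays, which held for 24.8% of all genes. These are whole cultures, in which fewer cells of a type and less RNA per cell cannot be told apart.

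**Figure D1:**
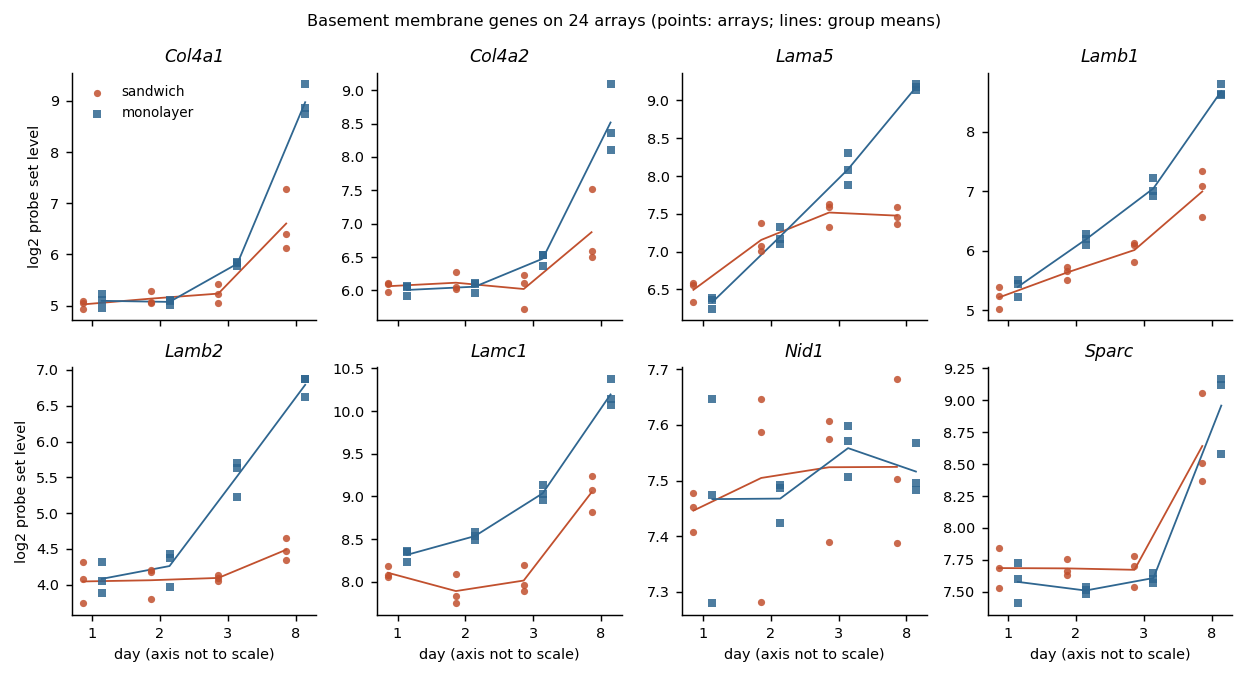
Log2 levels of the 8 genes (y axis, a separate scale for each gene) against the labelled day, with 1 point per array for sandwich (circles) and monolayer (squares) cultures and a line through the group means. The day 8 points of sandwich cultures lie below those of monolayer cultures for Col4a1, Col4a2, Lama5, Lamb1, Lamb2 and Lamc1, and overlap them for Nid1 and Sparc.

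The collagen chains come first. Col4a1 and Col4a2 wind into the alpha1-alpha1-alpha2 helix that is the general form of type IV collagen. Col4a1 (probe set 1373245_at) read 5.05, 5.09 and 4.93 in sandwich and 4.96, 5.10 and 5.22 in monolayer cultures on day 1. It read 5.05, 5.28 and 5.07 in sandwich and 5.11, 5.09 and 5.02 in monolayer cultures on day 2. The groups overlapped on both days, and every one of these readings was below the median of all values. Day 3 values were 5.23, 5.05 and 5.42 in sandwich and 5.86, 5.83 and 5.77 in monolayer cultures, with all monolayer arrays above all sandwich arrays.

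By day 8 Col4a1 reached 7.28, 6.40 and 6.13 in sandwich cultures (6.60 ± 0.60, SD, n = 3), against 9.32, 8.74 and 8.86 in monolayer cultures (8.97 ± 0.31, SD, n = 3). The groups were far apart, although replicate 1 of the sandwich cultures stood above the other two. The difference was -2.37 ± 0.18 log2 units (SE), 5.17-fold lower in sandwich cultures, with an adjusted p of 1.95e-10. On day 3 it was -0.58 ± 0.18 (adjusted p = 0.0281). The day 3 call did not hold in every refit: it was lost when any of 5 of the 6 day 3 arrays was left out, with adjusted p up to 0.125, and the other probe set, 1372439_at, gave -0.26 (adjusted p = 0.534).

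Col4a1 rose in both cultures, mostly after day 3. In sandwich cultures day 8 exceeded day 1 by 1.58 log2 units (adjusted p = 2.84e-07), and in monolayer cultures by 3.88 (adjusted p = 1.82e-14). The step from day 3 to day 8 was 1.37 in sandwich and 3.15 in monolayer cultures. The difference between the 2 rises was itself tested and came to -2.30 ± 0.26 (adjusted p = 3.73e-07). Probe set 1372439_at gave -2.35 on day 8 and -2.54 for the difference between the rises, close to the main probe set.

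Col4a2 (1388494_at) read 6.09, 6.12 and 5.98 in sandwich and 6.07, 5.91 and 6.05 in monolayer cultures on day 1. Day 2 gave 6.03, 6.27 and 6.05 in sandwich and 6.10, 5.97 and 6.11 in monolayer cultures, so the groups overlapped on both days. On day 3 the values were 6.23, 5.72 and 6.12 in sandwich and 6.52, 6.54 and 6.37 in monolayer cultures. The arrays no longer overlapped, but the difference of -0.45 did not pass (adjusted p = 0.16). The same difference passed in a fit of only the 2 groups compared (adjusted p = 0.0392) and in the fit without replicate 1 of both day 8 groups (adjusted p = 0.00515).

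On day 8 Col4a2 stood at 7.52, 6.51 and 6.59 in sandwich cultures (6.87 ± 0.56, SD, n = 3) and at 9.09, 8.10 and 8.36 in monolayer cultures (8.52 ± 0.51, SD, n = 3). Replicate 1 was the highest array in each culture, and still all sandwich arrays were below all monolayer arrays. The difference was -1.64 ± 0.21, 3.12-fold lower in sandwich cultures (adjusted p = 7.54e-07). From day 1 to day 8 Col4a2 rose 1.75-fold in sandwich (adjusted p = 0.00433) and 5.69-fold in monolayer cultures (adjusted p = 5.24e-10). Without replicate 1 of the sandwich cultures on day 8 the sandwich change was 0.48 log2 units, against 0.81 with it, and its call was lost (adjusted p = 0.0586). Without replicate 1 of both day 8 groups it was again 0.48 but passed (adjusted p = 0.00593). The sandwich step from day 3 to day 8 was 0.85 (adjusted p = 0.00662), and 0.53 in the same 2 refits, with adjusted p of 0.0772 in the first and 0.00766 in the second. That step also lost its call without replicate 2 of the sandwich cultures on day 3 (0.70, adjusted p = 0.0573). The rises differed by -1.70 ± 0.29 (adjusted p = 1.30e-04).

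Over the 8 group means Col4a1 and Col4a2 correlated at 0.997, the highest value of any pair among the 8 genes. The RefSeq annotation (assembly GRCr8) places them head to head on chromosome 16, with Col4a1 on the plus and Col4a2 on the minus strand. The stretch between the 2 transcription starts is 76 bases long, at chr16:84885521-84885596, and is shown because this pair moved together. It is written on the plus strand, 5′ to 3′, with the only match to the GC box GGGCGG, here as its complement, in capitals. Matches to CCAAT and TATAAA, and to the AP-1 and TEAD motifs, numbered 0 on both strands.
Between the Col4a2 and Col4a1 starts: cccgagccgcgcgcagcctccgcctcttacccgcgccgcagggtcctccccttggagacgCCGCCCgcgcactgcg

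Among the laminin chains, Lama5 encodes the alpha5 chain, found in the basement membranes of many adult epithelia. Lama5 (1388932_at) read 6.34, 6.56 and 6.58 in sandwich and 6.24, 6.37 and 6.39 in monolayer cultures on day 1. Day 2 brought 7.38, 7.08 and 7.00 in sandwich and 7.11, 7.17 and 7.33 in monolayer cultures. The 2 cultures overlapped on both days while the level rose in each, by 0.66 in sandwich (adjusted p = 3.92e-04) and by 0.87 in monolayer cultures (adjusted p = 1.89e-05). After that they separated. Day 3 values were 7.63, 7.60 and 7.33 in sandwich and 8.09, 7.88 and 8.30 in monolayer cultures, a difference of -0.57 ± 0.11 (1.49-fold lower, adjusted p = 6.34e-04).

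On day 8 Lama5 was at 7.46, 7.60 and 7.37 in sandwich cultures (7.48 ± 0.11, SD, n = 3) and at 9.14, 9.17 and 9.21 in monolayer cultures (9.17 ± 0.04, SD, n = 3). It was thus the tightest of the 6 genes on that day and 3.24-fold lower in sandwich cultures (-1.70 ± 0.11, adjusted p = 1.63e-11). Between days 3 and 8 it changed by -0.04 ± 0.11 in sandwich cultures, with an interval of -0.28 to 0.20 and no call (adjusted p = 0.913), but rose by 1.08 in monolayer cultures (adjusted p = 1.67e-07). Day 8 exceeded day 1 by 1.98-fold in sandwich and 7.17-fold in monolayer cultures, and the rises differed by -1.86 ± 0.16 (adjusted p = 5.45e-09).

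The other Lama5 probe sets did not show this. Probe set 1396159_at gave 4.62, 4.46 and 4.63 in sandwich and 4.23, 4.25 and 4.06 in monolayer cultures on day 8. There the sandwich arrays were the higher ones, by 0.39 ± 0.09 (adjusted p = 0.00168), and the difference between the changes was 0.50 ± 0.13 (adjusted p = 0.00665). Probe set 1377428_at stayed between 3.35 and 3.89 on all 24 arrays and passed in no comparison. With the mean of all 3 probe sets Lama5 differed by -0.41 on day 8 (adjusted p = 6.55e-05) and by -0.08 on day 3 (adjusted p = 0.539). Every direction given for Lama5 therefore holds for 1388932_at alone, and which probe set follows the main transcript was not tested.

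Lamb1 and Lamb2 encode the beta1 and beta2 chains, which take the same place in different trimers. Lamb1 (1373210_at) read 5.24, 5.02 and 5.39 in sandwich and 5.22, 5.45 and 5.52 in monolayer cultures on day 1, with overlap. By day 2 it was at 5.66, 5.51 and 5.73 in sandwich and 6.20, 6.28 and 6.09 in monolayer cultures, and the arrays lay apart. The day 2 difference of -0.55 ± 0.14 passed (1.47-fold lower, adjusted p = 0.0187), but 4 of the 6 arrays of that day were each needed for it, with adjusted p of up to 0.107 when 1 was left out.

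Later differences of Lamb1 were larger. On day 3 the values were 6.10, 6.14 and 5.81 in sandwich and 7.01, 7.23 and 6.92 in monolayer cultures, 2.05-fold lower (-1.04 ± 0.14, adjusted p = 6.80e-06). On day 8 they were 7.34, 7.09 and 6.57 in sandwich cultures (7.00 ± 0.39, SD, n = 3) and 8.63, 8.80 and 8.63 in monolayer cultures (8.68 ± 0.10, SD, n = 3), 3.22-fold lower (-1.69 ± 0.14, adjusted p = 1.15e-09). No sandwich array overlapped a monolayer array on either day. Lamb1 rose by 1.78 log2 units from day 1 to day 8 in sandwich and by 3.29 in monolayer cultures, and the rises differed by -1.51 ± 0.20 (adjusted p = 5.49e-06).

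Lamb2 (1367880_at) read 4.32, 4.08 and 3.74 in sandwich and 4.31, 4.05 and 3.88 in monolayer cultures on day 1. It gave 3.80, 4.20 and 4.18 in sandwich and 4.43, 3.97 and 4.38 in monolayer cultures on day 2. The groups overlapped on both days. Day 3 had 4.14, 4.09 and 4.06 in sandwich and 5.63, 5.23 and 5.69 in monolayer cultures, apart by -1.42 ± 0.15 (adjusted p = 1.41e-07).

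On day 8 Lamb2 had 4.65, 4.47 and 4.35 in sandwich cultures (4.49 ± 0.15, SD, n = 3) and 6.88, 6.62 and 6.87 in monolayer cultures (6.79 ± 0.15, SD, n = 3). The difference was -2.30 ± 0.15 (adjusted p = 1.37e-11), and all 12 sandwich arrays of the study stayed below the median of all values. In monolayer cultures Lamb2 rose by 2.71 log2 units from day 1 to day 8 (adjusted p = 5.47e-13). The matching change in sandwich cultures, 0.44 ± 0.15 (adjusted p = 0.0365), lost its call without any of 4 arrays (adjusted p of up to 0.243) and when beta-actin 3′ minus 5′ was a covariate (0.0613). The changes differed by -2.27 ± 0.22 (adjusted p = 2.83e-08).

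Lamc1 encodes the gamma1 chain, present in most laminin trimers. Lamc1 (1371322_at) read 8.08, 8.05 and 8.18 in sandwich and 8.35, 8.37 and 8.23 in monolayer cultures on day 1, without overlap but with no call (-0.21, adjusted p = 0.506). On day 2 it read 8.09, 7.75 and 7.84 in sandwich and 8.59, 8.49 and 8.54 in monolayer cultures, 1.56-fold lower (-0.64 ± 0.11, adjusted p = 3.75e-04). Day 3 values of 8.20, 7.96 and 7.89 in sandwich and 9.02, 8.96 and 9.13 in monolayer cultures were 2.03-fold apart (-1.02 ± 0.11, adjusted p = 1.45e-07). It was the only gene of the 8 whose sandwich arrays lay below its monolayer arrays on every day.

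The day 8 levels of Lamc1 were 9.24, 9.08 and 8.82 in sandwich cultures (9.05 ± 0.21, SD, n = 3) and 10.38, 10.14 and 10.07 in monolayer cultures (10.20 ± 0.16, SD, n = 3). At -1.15 ± 0.11 (2.21-fold lower, adjusted p = 9.98e-09) this was the smallest of the 6 called differences on day 8. In sandwich cultures no step of Lamc1 was called up to day 3, and the level then rose by 1.03 to day 8 (adjusted p = 2.95e-07). Monolayer cultures rose by 1.16 between the same days (adjusted p = 3.32e-08). Over the whole period Lamc1 rose 1.92-fold in sandwich and 3.68-fold in monolayer cultures, a difference of -0.94 ± 0.16 (adjusted p = 9.24e-05). Probe set 1370993_at gave -1.16 on day 8 and -0.83 ± 0.20 for the difference between the rises (adjusted p = 0.0048).

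**Figure D2:**
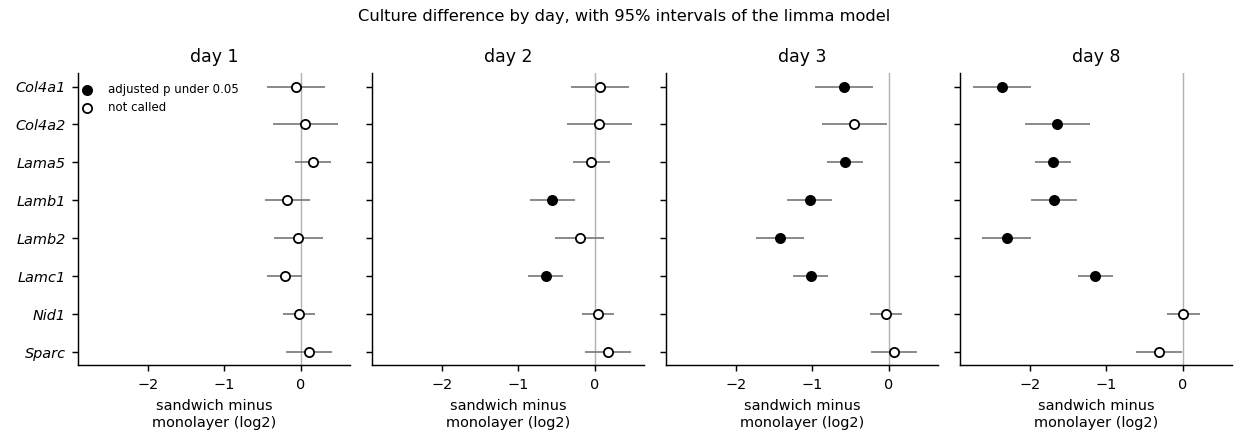
Sandwich minus monolayer difference of each gene on days 1, 2, 3 and 8 (x axis, log2 units), with 95% intervals of the limma model and filled circles where the adjusted p was under 0.05. Filled circles number 0, 2, 5 and 6 from day 1 to day 8, and all of them lie below 0.

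Nid1 encodes nidogen 1, the link between the laminin and collagen networks. Its main probe set, 1371032_at, lay between 7.28 and 7.68 on all 24 arrays. On day 8 the values were 7.68, 7.50 and 7.39 in sandwich and 7.48, 7.50 and 7.57 in monolayer cultures, with full overlap and a difference of 0.01 ± 0.10 (interval -0.20 to 0.22, adjusted p = 0.969). No comparison of this probe set passed.

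Probe set 1371518_at of Nid1 did change. On day 1 it read 5.23, 5.04 and 5.35 in sandwich and 5.29, 5.22 and 5.34 in monolayer cultures, and on day 8 it read 6.98, 6.55 and 6.30 in sandwich and 6.02, 5.99 and 5.93 in monolayer cultures. The sandwich arrays were thus the higher ones on day 8, by 0.63 ± 0.15 (1.55-fold, adjusted p = 0.00267). From day 1 to day 8 this probe set rose by 1.41 in sandwich (adjusted p = 1.20e-07) and by 0.70 in monolayer cultures (adjusted p = 8.98e-04), and the rises differed by 0.71 ± 0.22 (adjusted p = 0.0262). The direction is opposite to that of the collagen and laminin chains, and the call for Nid1 depends on the probe set.

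**Figure D3:**
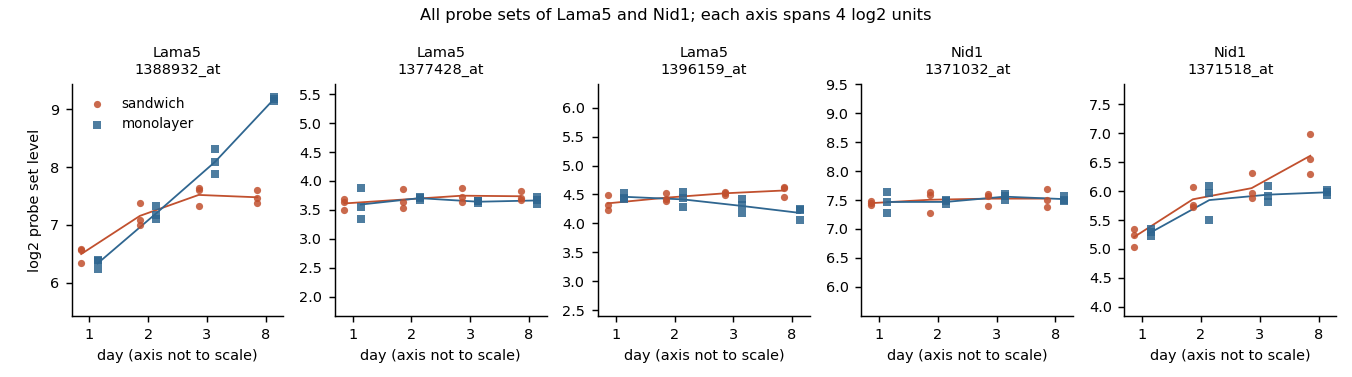
Log2 levels of the 3 Lama5 and 2 Nid1 probe sets (y axis, 4 log2 units in each panel) against the labelled day, with 1 point per array for sandwich (circles) and monolayer (squares) cultures and a line through the group means. On day 8 the sandwich points lie below the monolayer points for Lama5 1388932_at and above them for Lama5 1396159_at and Nid1 1371518_at.

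Sparc encodes osteonectin, a matricellular protein that binds collagen. Sparc (1367563_at) read 7.53, 7.84 and 7.68 in sandwich and 7.41, 7.60 and 7.72 in monolayer cultures on day 1. On days 2 and 3 it lay between 7.54 and 7.78 in sandwich and between 7.48 and 7.65 in monolayer cultures. Up to day 3 no comparison of Sparc passed. On day 8 it read 9.06, 8.36 and 8.50 in sandwich cultures (8.64 ± 0.37, SD, n = 3) and 9.12, 8.58 and 9.17 in monolayer cultures (8.96 ± 0.33, SD, n = 3), and the cultures overlapped.

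Sparc therefore rose late in both cultures, by 1.94-fold from day 1 to day 8 in sandwich (adjusted p = 1.55e-05) and by 2.60-fold in monolayer cultures (adjusted p = 3.88e-08). The day 8 difference was -0.32 ± 0.15, with an interval of -0.62 to -0.01, and did not pass (adjusted p = 0.119). That result turned on single arrays: without replicate 1 of the sandwich cultures the difference was -0.52 (adjusted p = 0.00532), and without replicate 2 of the monolayer cultures it was -0.50 (adjusted p = 0.0101). The rises differed by -0.42 ± 0.21 (adjusted p = 0.202), and by -0.63 (adjusted p = 0.0188) without the first of these arrays and -0.61 (adjusted p = 0.0304) without the second. Probe set 1367562_at gave rises of 2.14 in sandwich and 2.63 in monolayer cultures.

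Taking the days in turn, no gene of the 8 was called between cultures on day 1, when 2.57% of all genes were. An unadjusted p under 0.05 was found for 0 of the 8, while 678 of all 14217 genes were higher and 1286 lower. Lamb1 and Lamc1 were lower in sandwich cultures on day 2, when 5.85% of all genes were lower and 8.67% were called. On day 3 Col4a1, Lama5, Lamb1, Lamb2 and Lamc1 were lower, with 11.8% of all genes lower and 22.7% called. The first day with a call was thus day 2 for Lamb1 and Lamc1, day 3 for Col4a1, Lama5 and Lamb2, and, in the fit of all arrays, day 8 for Col4a2, and whether the genes differed in timing was not tested. The median difference over the 8 genes was -0.58 on day 3, against 0.01 over all genes.

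Within sandwich cultures, Lama5 alone passed between days 1 and 2 (4.17% of all genes were higher on day 2). No gene passed between days 2 and 3 (2.4%), and 5 rose between days 3 and 8 (7.01%). At an unadjusted p under 0.05, 2 were higher on day 3 than on day 2, where 1247 of all 14217 genes were. Over the whole period 7 of the 8 rose in sandwich cultures, where 14.3% of all genes did. In monolayer cultures 2 rose between days 1 and 2 (3.56%), 5 between days 2 and 3 (3.45%) and 7 between days 3 and 8 (8.66%). Again 7 rose over the whole period, where 17.5% of all genes did. Nid1 was the exception in each culture by its main probe set, whereas its probe set 1371518_at rose in both. Of the 5 monolayer calls between days 2 and 3, that of Col4a1 was lost without replicate 2 of day 2 or replicate 1 of day 3 (adjusted p = 0.0569 and 0.0534), and that of Lamc1 without replicate 3 of day 3 (adjusted p = 0.0535).

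The median change from day 1 to day 8 was 0.95 in sandwich and 2.61 in monolayer cultures. The rise was smaller in sandwich cultures for 6 genes by the test of the difference itself, which 10.5% of all genes passed in that direction and 21.8% in either. The same 6 genes passed the test of a culture-by-day interaction over all days, which 21.2% of all genes passed.

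Ordered by their 8 group means, monolayer day 8 was the highest group for 7 of the genes, and the next group did not overlap it in 6 of these. Sparc was the seventh, with sandwich day 8 next and overlapping. The second place went to sandwich day 8 for Col4a1 (6.60), Col4a2 (6.87), Lamc1 (9.05) and Sparc (8.64), and to monolayer day 3 for Lama5 (8.09), Lamb1 (7.05) and Lamb2 (5.52). Sandwich day 8 and monolayer day 3 overlapped for Col4a2, Lamb1 and Lamc1. In Lamc1 those groups averaged 9.05 and 9.04, and in Lamb1 7.00 and 7.05.

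The lower end of the order was flat for most genes. For Col4a1 the 5 lowest groups, from sandwich day 1 (5.02) to sandwich day 3 (5.23), overlapped their neighbours, as did the 5 lowest of Col4a2 and the 6 lowest of Lamb2. Lamc1 and Lama5 had the most steps without overlap, 4 each of 7, and Nid1 had none.

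Beyond the collagen pair, correlations over the 8 group means were 0.953 for Lamb1 and Lamc1, 0.951 for Lama5 and Lamb1, and 0.679 for Lamb2 and Sparc. Nid1 ranged between 0.319 and 0.686 with the other genes. These points share arrays and days, so the values only describe the shape of the time courses.

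Of 1994 other genes with a range of at least 1 log2 unit between group means, the likest course to both Col4a1 and Col4a2 was that of Armcx2 (r = 0.995 with each), followed by Lhfpl6. For Lama5 the likest were Ctsh, Dtx4 and Rprd1a (0.980, 0.978 and 0.976). For Lamb1 they were Cyba, Epdr1 and Myzap (0.996 each), for Lamb2 Pkib, Fblim1 and Capg (0.998, 0.995 and 0.994), and for Lamc1 Trim35, Tifa and Pfn2 (0.990, 0.990 and 0.988). Sparc ran closest to Lgals1, which encodes galectin-1 (0.996), then Fstl1 (0.993) and Mgp, the matrix Gla protein gene (0.989). The flat Nid1 probe set had no such neighbour, its best being Scd2 at 0.872.

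On day 8 replicate 1 of the sandwich cultures was the highest of its group for 7 of the 8 genes, Lama5 being the exception, where 29.1% of all genes had it highest. In monolayer cultures replicate 1 was highest for 4 of the 8, against 29.9% of all genes. The same sandwich array was the highest for 10 of 15 measured fibrillar and interstitial matrix genes. It was the highest for 11 of 21 collagen folding, modification and crosslinking genes and for 4 of 13 stellate cell markers. Its beta-actin 3′ minus 5′ value was 1.21, against 0.94 and 0.90 in the other sandwich arrays of that day. With that beta-actin value as a covariate, 6 of the 8 genes were again called on day 8, all lower in sandwich cultures.

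A refit without replicate 1 of both day 8 groups, chosen after these values were seen, gave 7 lower genes on day 8, Sparc joining at -0.44 (adjusted p = 0.0314). It gave -2.53 for Col4a1, -1.68 for Col4a2, -1.71 for Lama5, -1.88 for Lamb1, -2.34 for Lamb2 and -1.15 for Lamc1. The differences of these 6 genes were as large or larger in this refit. Replicate 1 was the highest sandwich array for all of them but Lama5, so leaving it out lowers those sandwich means. The refit is therefore no independent check of the differences.

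**Figure D4:**
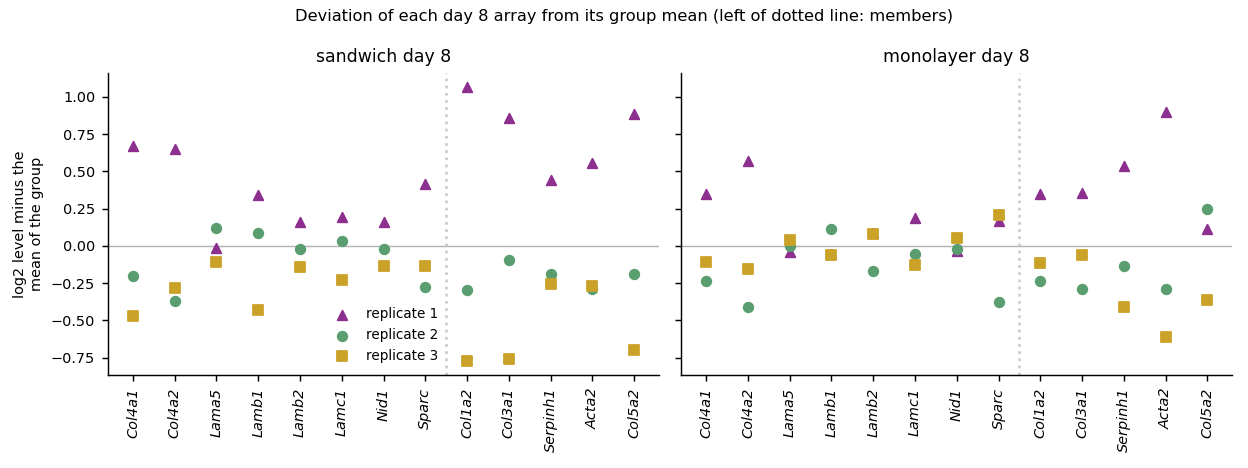
Deviation of each day 8 array from the mean of its group (y axis, log2 units) for the 8 genes and, right of the dotted line, Col1a2, Col3a1, Serpinh1, Acta2 and Col5a2, in sandwich (left panel) and monolayer cultures (right panel). Replicate 1 (triangles) lies above the other arrays for 7 of the 8 genes in the sandwich panel and for 4 in the monolayer panel. The genes right of the line are a selection, in each of which replicate 1 is the highest sandwich array. Col5a2 was named outside the rule for other genes.

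Of 21 other basement membrane genes measured on day 8, 3 were lower in sandwich cultures, 3 were higher and 15 did not pass, with a median of 0.06. Of all genes, 20.7% were lower and 36.3% called in either direction. Col4a5, an alpha chain of other type IV helices, was 1.77-fold lower on day 8 (8.67 ± 0.35 in sandwich, 9.50 ± 0.25 in monolayer cultures, SD, n = 3, adjusted p = 1.57e-04). Its widest gap was earlier, 4.06-fold on day 3 (adjusted p = 3.29e-10), after which it also rose in sandwich cultures. Agrn, the proteoglycan agrin, was 1.76-fold lower (adjusted p = 5.21e-05), and Hspg2, which encodes perlecan, 1.54-fold lower (adjusted p = 7.99e-04).

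The 3 higher genes were the laminin alpha chains Lama3, Lama1 and Lama4, by 0.30, 0.34 and 0.29 log2 units. The last pair was named after its values were seen. On day 8 Lama3 averaged 6.05 in sandwich and 5.75 in monolayer cultures, Lama1 5.73 in sandwich and 5.39 in monolayer cultures, and Lama4 4.62 in sandwich and 4.33 in monolayer cultures. Lama4 was thus below the median of all values in both cultures, and Lama1 in monolayer cultures.

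Genes for collagen folding, modification and crosslinking came next. Of 21 measured on day 8, 10 were lower in sandwich cultures, where 20.7% of all genes were, 2 were higher and 9 did not pass, with a median of -0.35. Serpinh1, the collagen chaperone HSP47, averaged 7.07 ± 0.38 in sandwich and 9.02 ± 0.49 in monolayer cultures on day 8 (SD, n = 3), 3.86-fold lower (adjusted p = 1.05e-07). It was already lower on day 2, by 2.30-fold (adjusted p = 6.46e-04). Lox, a lysyl oxidase that crosslinks fibrillar collagen, was lower by -2.65 ± 0.16 (adjusted p = 1.57e-12), and Pxdn, the peroxidase that forms the sulfilimine crosslink of type IV collagen, by -1.40 ± 0.11 (adjusted p = 3.69e-10). P3h3, of the prolyl 3-hydroxylase family, followed at -0.93 (adjusted p = 7.55e-08).

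Like the collagen chains, Lox and Pxdn rose mainly in monolayer cultures. From day 1 to day 8 Lox rose by 0.54 in sandwich and 3.25 in monolayer cultures, and the difference of -2.71 passed (adjusted p = 2.21e-09). Pxdn changed by 0.27 in sandwich (adjusted p = 0.0886) and rose by 1.72 in monolayer cultures, differing by -1.45 (adjusted p = 2.35e-07). In this list 8 of 21 genes had a smaller change in sandwich cultures by that test, against 10.5% of all genes, and none a larger one. At an unadjusted p under 0.05, 11 were smaller and 0 larger, against 2339 and 2319 of all 14217 genes.

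Of 12 measured receptors of basement membrane proteins, 7 were lower in sandwich cultures on day 8, where 20.7% of all genes were, 1 was higher and 4 did not pass. Ddr1, a receptor tyrosine kinase activated by collagen, was 2.61-fold lower (adjusted p = 2.24e-09), and Itga3, the alpha chain of a laminin-binding integrin, was 1.70-fold lower (adjusted p = 2.82e-06). Itga6, another laminin-binding alpha chain, and Itgb1, their common beta chain, were 1.44-fold and 1.45-fold lower (adjusted p = 0.00575 and 0.00637). Itga1, of a collagen-binding integrin, was the exception at 2.20-fold higher in sandwich cultures (adjusted p = 4.03e-06), and it fell by 0.73 log2 units over the period in monolayer cultures (adjusted p = 7.71e-04).

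**Figure D5:**
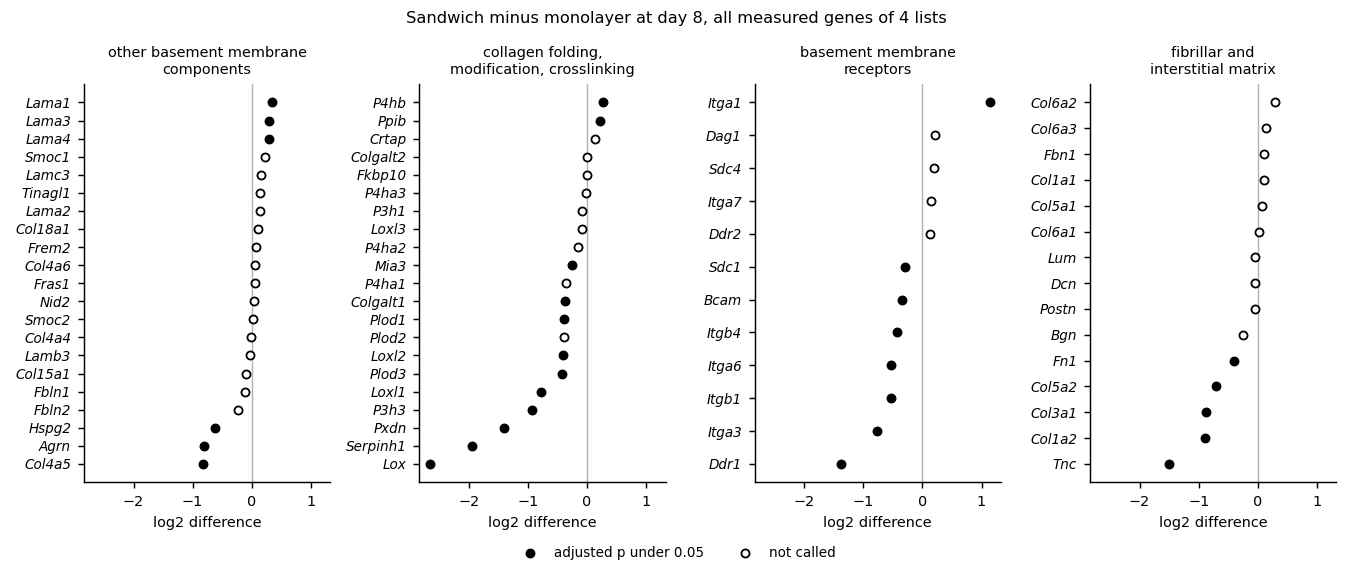
Sandwich minus monolayer difference on day 8 (x axis, log2 units) for every measured gene of 4 lists, sorted within each list, with filled circles where the adjusted p was under 0.05. Filled circles below 0 number 3 of 21 among other basement membrane components, 10 of 21 among collagen folding, modification and crosslinking genes, 7 of 12 among receptors and 5 of 15 in fibrillar and interstitial matrix.

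Of 15 measured fibrillar and interstitial matrix genes, 10 were higher on day 8 than on day 1 in sandwich cultures, where 14.3% of all genes were, and 10 in monolayer cultures, where 17.5% were. In each culture the other 5 did not pass. Between cultures 5 of 15 were lower in sandwich on day 8, where 20.7% of all genes were, and none was higher. These counts between cultures were the same at an unadjusted p under 0.05, where 3553 of all 14217 genes were lower and 2830 higher. Col1a2 averaged 7.24 ± 0.95 in sandwich and 8.14 ± 0.31 in monolayer cultures (SD, n = 3, -0.90, adjusted p = 0.0155), and Col3a1 differed by -0.88 (adjusted p = 0.00338), but arrays of the 2 cultures overlapped for both. Col1a1, which makes the type I helix with Col1a2, was at 6.00 ± 0.31 in sandwich and 5.90 ± 0.20 in monolayer cultures with no call (0.11, adjusted p = 0.665). Fn1, fibronectin, was 1.32-fold lower (adjusted p = 3.95e-04), and Tnc, tenascin-C, was lower by -1.51 (adjusted p = 4.79e-11).

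Markers of other liver cells were read beside these results, since several of them also make basement membrane. Of 13 stellate cell markers, Reln was lower in sandwich cultures on day 8 (-0.55, adjusted p = 8.24e-04), Rgs5 was higher (1.84, adjusted p = 3.12e-12) and 11 did not pass. Their mean level per array was 5.87 to 5.98 in sandwich and 5.85 to 5.89 in monolayer cultures on day 8, so the ranges overlapped. Acta2, smooth muscle actin, differed by -0.61 without passing (adjusted p = 0.0909). Lrat, which stores retinol as its ester, averaged 3.36 in sandwich and 3.56 in monolayer cultures, both below the median of all values.

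None of the 11 endothelial markers was above that median in any group, and only Kdr passed on day 8, at 0.57 higher in sandwich cultures (adjusted p = 0.00368). Cholangiocyte markers had a mean of 5.71 to 5.94 in sandwich and 6.98 to 7.15 in monolayer cultures on day 8. Of all genes, 20.7% were lower in sandwich cultures on that day, and of these markers 2 of 6. These were the bile duct keratins Krt19 (-3.19, adjusted p = 9.65e-17) and Krt7 (-3.22, adjusted p = 2.97e-14), whereas Epcam differed by -0.23 (adjusted p = 0.212). Both keratins rose in monolayer cultures over the same period as Col4a1 and Col4a2, and their part in the members' levels was not tested.

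Of 9 macrophage markers, 7 were higher in sandwich cultures on day 3, where 1554 of all 14217 genes were. On day 8 only Cd68 passed, at -0.71 (adjusted p = 5.42e-05). Hepatocyte markers were higher in sandwich cultures for 7 of 9 on day 8, where 2215 of all 14217 genes were. The 7 included Cps1 (2.06, adjusted p = 6.55e-12) and Cyp2e1 (2.12, adjusted p = 1.46e-09). The mean of the 9 was 12.78 to 12.92 in sandwich and 11.85 to 12.20 in monolayer cultures. The day 8 difference of this mean was thus opposite in direction to that of the collagen and laminin chains by their main probe sets. Within sandwich cultures the mean was higher than on day 1 (12.35 to 12.44), as were those chains. Of the 9 markers, however, 4 were higher than on day 1, 2 were lower and 3 did not pass, with a median change of 0.02. Of all 14217 genes, 2029 were higher and 2483 lower. The part of the marker mean in the levels of the collagen and laminin chains was not tested.

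Promoter sequence was available for 7 of the 8 genes from RefSeq (GRCr8), as the 250 bases before the transcription start that the promoter table uses, and Lamb2 is named only. For Nid1 and Lamb1 that start lies inside the gene as annotated, so the window of Nid1 lies wholly and that of Lamb1 almost wholly within the gene. The GC box GGGCGG, searched on both strands with overlapping matches counted, was present in 6 of these 7, against 32.4% of 27457 promoters of the same length. The only match of Col4a1 lies in the stretch its window shares with that of Col4a2, so the same bases are counted for both genes. CCAAT was present in 3 of 7, against 34.3% of all promoters, and TATAAA in none of 7, against 13.1%. The TEAD motif CATTCC was present in 3 of 7, namely Lamc1, Nid1 and Sparc, against 11.8%, and the match in Lamc1 overlaps a GC box match. The AP-1 motif TGANTCA was present in none of 7, against 6.36%. The largest and smallest numbers of GC boxes belonged to Lamc1, with 5 (1.84% of promoters hold at least as many), and Sparc, with none. Both windows are printed for that contrast, 5′ to 3′ on the minus strand, with GC box matches in either orientation in capitals. The Lamc1 window lies at chr13:68051987-68052236 and the Sparc window at chr10:40038817-40039066.
Lamc1 upstream: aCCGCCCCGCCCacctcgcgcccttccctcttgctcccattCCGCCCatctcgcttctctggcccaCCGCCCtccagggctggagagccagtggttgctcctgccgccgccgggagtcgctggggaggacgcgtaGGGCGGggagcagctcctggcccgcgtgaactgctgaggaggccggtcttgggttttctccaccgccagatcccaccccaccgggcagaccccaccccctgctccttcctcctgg
Sparc upstream: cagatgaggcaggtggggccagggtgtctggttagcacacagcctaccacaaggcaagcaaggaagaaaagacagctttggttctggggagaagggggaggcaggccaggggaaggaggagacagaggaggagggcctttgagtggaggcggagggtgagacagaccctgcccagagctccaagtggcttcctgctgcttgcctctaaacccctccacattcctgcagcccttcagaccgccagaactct

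A match is a run of letters and not a site shown to be bound. These windows were not measured in this study, and the levels above say nothing of which sequence acts.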

How the data were processed

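Of the 24 arrays, 12 were from sandwich and 12 from monolayer cultures. The deposited values are log2 probe set levels; the submitters' processing notes name RMA and limma, with no version, role or order, and no scanner files were used here. The 57 Affymetrix control probe sets were left out of 31099. Of 31042 probe sets, 20826 had 1 platform symbol, 436 had several and 9780 had none, and 20758 symbols were matched by gene ID to RefSeq (GRCr8).

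A model with 1 mean for each of the 8 groups was fitted to all 24 arrays and all 31042 probe sets with limma 3.58.1 in R 4.3.3. P-values are two-sided, from limma's moderated test with Benjamini-Hochberg adjustment over all probe sets within a comparison, and called under 0.05; the interaction used limma's moderated F. A gene counts through its brightest probe set. In simulated day 8 comparisons 200 of 31042 probe sets were changed. Of these, 59.7% of 67 changed by 0.5 log2 units were called, and 100% of those changed by 1 or 2. Of the unchanged probe sets, 13 were called. In the real day 8 comparison 36.3% of genes were called, so the simulated share does not give the share found there.

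The members and gene lists were chosen with earlier results of these data known. Genes named beside the members were the 4 with the smallest adjusted p on day 8 in each list, Col1a1, Col1a2, Fn1, Hspg2, Serpinh1 and Itgb1, and the 3 genes most like each member; others are marked where they occur. Listed genes that were not measured are not analysed here. The precision of every value is limited by the 3 arrays per group. Same-numbered arrays were checked for pairing over 28 group pairs: all 3 correlations of deviations exceeded 0.1 in 10 of them, and for sandwich against monolayer arrays of 1 day only on day 8. The labels give no shared origin to equal numbers, so the replicate block is an alternative only. Alternatives were quantile normalization, median centring, array weights, the replicate block, a fit of only the groups compared, a filter on dim probe sets, limma's trend and robust prior, a beta-actin covariate, other probe set rules and leaving out each array.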

Additional observations from a re-analysis of the deposited data

Results flagged for a closer look

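The change from day 1 to day 8 differed between cultures, by limma's test of the difference itself, for 10 probe sets of 7 genes. A smaller rise in sandwich than in monolayer cultures was found for Col4a1 (-2.30 at 1373245_at and -2.54 at 1372439_at), Col4a2 (-1.70), Lama5 at 1388932_at (-1.86), Lamb1 (-1.51), Lamb2 (-2.27) and Lamc1 (-0.94 at 1371322_at and -0.83 at 1370993_at). The remaining probe sets ran the other way: Lama5 at 1396159_at gave 0.50 and Nid1 at 1371518_at gave 0.71, a change more positive in sandwich cultures.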

How the results depend on the processing

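Of 53 member differences called, 44 kept their call and direction under all alternatives other than the pair named last. Many of the 1855 refits left the difference itself unchanged, as when the array left out was of a group not compared or the gene had 1 probe set. The count of calls kept therefore overstates how firm they are. Of these refits, 1819 left the call as it was, 29 lost it and 7 turned the direction. All 7 were Lama5 read from its next brightest probe set: 0.22 and 0.39 for sandwich against monolayer on days 3 and 8, -0.045, -0.11, -0.12 and -0.28 for the monolayer steps from day 1 to 2, 2 to 3, 3 to 8 and 1 to 8, and 0.50 for the difference in change. The count on day 3 was 3 with the mean of all probe sets and 3 with the next brightest one, against 5. The sandwich step from day 1 to 2 gave 2 with array weights, 2 with the beta-actin covariate and 2 with the mean of probe sets, against 1. The sandwich step from day 2 to 3 gave 1 with array weights, against 0, and the monolayer step 2 with the next brightest probe set, against 5. Leaving out 1 array gave 1 to 2 on day 2, 1 to 2 for the first sandwich step and 0 to 1 for the next one. The cause of these changes was not tested. With the replicate block all 104 results kept their call, and 6 members were again called on day 8; block and pairing changed no other call. Reading the next brightest probe set and the refit without replicate 1 of both day 8 groups were chosen after seeing the data. Signal limits every result with a group under the median of all values, among them those of Lamb2, Lox and Pxdn. On day 8 it also limits Krt7 and Krt19, under that median in sandwich cultures, and Tnc and P3h3, whose group means lay under it in both cultures. Col4a1 lies under it on days 1 and 2 in both cultures and on day 3 in sandwich cultures. So do Lamb1 on day 1 and Lama5 at its next brightest probe set.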
